A study of Bos taurus with 39 samples.

Results

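The co-culture group consisted of 9 of the 39 bovine oocyte libraries of the series, those titled Coculture, with 3 libraries each at 1 h, 6 h and 22 h of in vitro maturation. The rule for choosing them used only the titles and no measured value. Denuded oocytes (DOs), stripped of their cumulus cells with hyaluronidase and vortexing, were matured in serum-free TCM-199 with epidermal growth factor, in the same well as an equal number of intact cumulus-oocyte complexes (COCs) but behind a porous insert that prevented contact. In the study's scheme 1 h, 6 h and 22 h stand for the germinal vesicle stage, germinal vesicle breakdown and metaphase II. Each library was a pool of 30 oocytes from slaughterhouse ovaries, and neither breed nor age of the cows was given. The methods state that oocytes with a visible polar body were taken for lysis, without saying how oocytes at the earlier stages were chosen. The DO group (labelled Denuded, DOs matured alone) and the control group (labelled Control, oocytes from intact COCs), with 9 libraries each at the same times, shared the medium and the ovary source and served for comparison. A further group was treated with the gap junction blocker carbenoxolone (CBX) and was not fitted over time here.

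Fully grown oocytes stop transcribing before maturation and run on stored RNA until the embryonic genome is activated. MicroRNAs (miRNAs) are short RNAs that recognise target mRNAs mainly through the seed, bases 2 to 8 from the 5′ end, and normally reduce translation or stability of the target. In the intact complex the oocyte exchanges small molecules with cumulus cells through gap junctions, whereas in non-contact co-culture only the shared medium links the oocyte to the COCs. The comparisons over time therefore describe how the oocyte miRNA profile differed between meiotic stages when cumulus secretions were present without contact.

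The tables hold 2 kinds of entries: known bovine miRNAs, and predicted miRNAs that the authors' software proposed from the genome, given here as "predicted miR-" with the number of the deposited entry. Predicted entries need not be miRNAs. The sequences of some entries named in the results are shown here, and whether they resemble other small RNAs was not tested. The sequences are the study's own, with bases 2 to 8 in capitals, except for predicted miR-457, where the capitals mark the last 3 bases.
Predicted miR-457: uccccggcaccuccaCCA
Predicted miR-484: gGGGGUGUagcucagugg
Predicted miR-485: gGGGAUGUagcucagugg
Predicted miR-672: gACCGAAGuggggaaagg
Predicted miR-137: uGCCAAUUcaggggacacggguuug
Predicted miR-559: gGCGCGCCcccgccgcgc
Predicted miR-318-0: gCGCGCCCccgccgcgcg
Predicted miR-895: gCGCCCCCggggccgcgg
The predicted hairpin of predicted miR-457 lies at chr22:58542346-58542453 on the plus strand of ARS-UCD1.2. Those of predicted miR-559, predicted miR-318-0 and predicted miR-895 lie at chr27:6219131-6219238 (minus), chr17:69639696-69639803 (plus) and chr9:93405029-93405136 (plus), and that of predicted miR-672 at chr3:2472195-2472302 (plus). No annotation of that build was used here, so the genes around these positions are not given. Predicted miR-457 is the only 1 of the 18 predicted miRNAs with a sequence at hand that ends in CCA, the ending that cells add to mature transfer RNAs. The first 7 bases of predicted miR-484 can pair with the 7 bases of predicted miR-457 that precede its final 4, through 6 Watson-Crick pairs and 1 G-U pair. It is given because it had the most such pairs of the 18 sequences compared. Predicted miR-485 reached 5 Watson-Crick pairs and 1 G-U pair, and predicted miR-364 reached 4 and 1. Predicted miR-559, predicted miR-318-0 and predicted miR-895 are the 3 of the 18 that hold only G and C, and predicted miR-559 and predicted miR-318-0 share a run of 17 bases.

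The co-culture libraries held between 54069 and 165238 miRNA counts, with a median of 74521. The deepest were replicate 1 at 6 h and replicate 1 at 22 h (158481). In the shallowest library a count of 3 corresponded to 55.5 CPM, the count relative to the library total on a per-million scale, and in the deepest to 18.2 CPM. Of 1995 miRNAs in the tables, 1294 were detected in at least 1 of the 9 libraries, and known miRNAs took 37.8% to 44.3% of the counts. Across the 440 miRNAs compared between 1 h and 22 h, pairs of libraries from the same time had a median Spearman correlation of 0.906 (n = 9 pairs), and pairs from different times had a median of 0.901 (n = 27 pairs). These correlations are across miRNAs, which are not independent, and the pairs share libraries. The ranges of both kinds of pairs, 0.857 to 0.923 and 0.840 to 0.942, overlapped.

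The most abundant known miRNA was bta-miR-16b, a member of the miR-15/16 family of cell cycle regulators, with levels from 56671 to 87078 TMM-normalised CPM over the 9 libraries. bta-miR-10b, which lies in a HOX gene cluster, ranged from 34984 to 57719 CPM. bta-miR-148a ranged from 22849 to 50022 CPM, and its values are given with its family below. bta-let-7a-5p, bta-miR-16a, bta-let-7f, bta-miR-122, bta-miR-7, bta-miR-30d and bta-let-7i completed the 10 most abundant, with means over the 9 libraries between 11822 and 21992 CPM. Among the predicted entries predicted miR-212 (mean 97151 CPM) and predicted miR-787 (mean 77157 CPM) exceeded every known miRNA. Predicted miR-777, predicted miR-322 and predicted miR-948 followed.

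No miRNA passed the test in co-culture at any step of maturation. A miRNA was called differentially expressed (DE) when its level differed by 1 or more on the log2 scale with a Benjamini-Hochberg adjusted p under 0.05, in edgeR's quasi-likelihood test with the replicate number as a block. From 1 h to 6 h, 0 of 453 tested miRNAs were called (0%), 30 had an unadjusted p under 0.05, and the smallest adjusted p was 0.401. Between 6 h and 22 h, 0 of 415 were called (0%), 27 had an unadjusted p under 0.05, and the smallest adjusted p was 0.358. Over the whole interval, 1 h to 22 h, 0 of 440 were called (0%), 26 had an unadjusted p under 0.05, and the smallest adjusted p was 0.0900. DESeq2 made 0, 0 and 1 calls in these comparisons, with 16, 6 and 9 miRNAs at an unadjusted p under 0.05. The 3 comparisons share libraries, so their values are not independent of each other.

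The zero from 1 h to 22 h depended on the processing and on single replicates. Of 16 alternative analyses, described in the closing section, 5 gave 0 calls. Among the 5 were dropping the fold-change threshold and adjusting over the 3 comparisons together, which reuse the main fit. Dropping the fold-change threshold could add no call, because no adjusted p was under 0.05. Without replicate 1 there were 12 calls, 10 higher and 2 lower at 22 h, without replicate 2 there were 0, and without replicate 3 there was 1. For 1 h to 6 h the counts were 0 without replicate 1, 2 without replicate 2 and 6 without replicate 3, and from 6 h to 22 h they were 2, 0 and 0. Entries with identical counts in all libraries are each included in these numbers. The 6 include predicted miR-597, predicted miR-598 and predicted miR-599, which are a single signal. The 2 from 6 h to 22 h are predicted miR-559 and its identical copy predicted miR-560, which are also among the 12. Differences of at least 1 on the log2 scale were few among the fitted values: 17 miRNAs from 1 h to 6 h, 7 from 6 h to 22 h and 6 from 1 h to 22 h. The median absolute log2 fold changes (0.28, 0.20 and 0.24) lay below the median standard errors (0.32, 0.25 and 0.29).

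**Figure D1:**
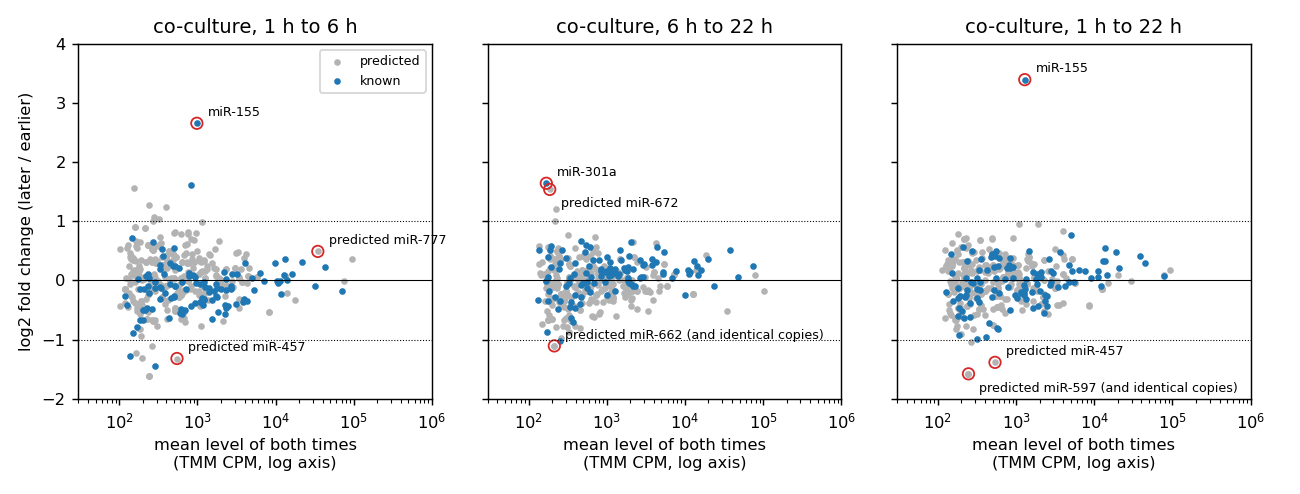
Log2 fold change between times (vertical axis; dotted lines at 1 and -1) against the mean level of both times (TMM-normalised CPM, log axis) for every miRNA tested in the co-culture group. Blue points are known and grey points predicted miRNAs, and red circles mark the 3 smallest p-values of each panel, with identical copies drawn once. bta-miR-155 lies apart in the first and the third panel, at 2.66 and 3.40, and predicted miR-457 lies below -1 in both.

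The largest difference in the co-culture group was that of bta-miR-155, a miRNA known for its induction in activated immune cells and processed from its own non-coding host transcript. At 1 h the 3 libraries held 431, 195 and 62.8 CPM, at 6 h they held 1598, 434 and 3181 CPM, and at 22 h they held 2222, 1640 and 3190 CPM (replicates 1, 2 and 3). Each 22 h library lay above each 1 h library, and so did each 6 h library, although replicate 2 at 6 h (434 CPM) was only just above replicate 1 at 1 h. The mean went from 230 ± 187 CPM at 1 h through 1738 ± 1379 CPM at 6 h to 2351 ± 783 CPM at 22 h (SD, n = 3 each). The counts behind the 1 h values were 32, 20 and 5, so the level at that time was the least precise.

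From 1 h to 22 h the fitted log2 fold change of bta-miR-155 was 3.40 (SE 0.53), a 10.5-fold difference, with an edgeR adjusted p of 0.0900, and the level was higher at 22 h in 3 of 3 replicate pairs. The pairs themselves differed by 5.15-fold, 8.41-fold and 50.8-fold. Groups that did not overlap, with 22 h higher, were found for 7.27% of all tested miRNAs. The adjusted p was under 0.05 in 11 of 16 alternative analyses, and over all 16 it ranged from 6.68e-21 to 0.846 (without replicate 2). The log2 fold change stayed between 2.66 and 4.01. Between 1 h and 6 h the log2 fold change was 2.66 (SE 0.73; edgeR adjusted p = 0.401; range over 16 alternatives 7.7e-08 to 0.997), and from 6 h to 22 h it was 0.65 (SE 0.32; edgeR adjusted p = 0.668), higher in 3 of 3 pairs at both steps. Leaving out 1 replicate moved the value for 1 h to 6 h to 3.14 (replicate 1), 3.43 (replicate 2) and 1.60 (replicate 3). Groups not overlapping, with 6 h higher, made up 6.84% of all miRNAs from 1 h to 6 h.

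bta-miR-155 is also a leukocyte marker, so the other 6 markers of that list were examined in the same libraries. bta-miR-142-3p was at 0 in all 9 libraries, bta-miR-142-5p did not exceed 3 counts and bta-miR-223 did not exceed 2 counts in any library. bta-miR-146a, bta-miR-146b and bta-miR-150 were present in all 9 libraries, and the part of leukocyte RNA in the level of bta-miR-155 was not tested. Over the whole interval the log2 fold changes of these 3 and of bta-miR-155 had a median of 0.34, with 1 of the 4 (bta-miR-146a, -0.46) below 0. The summed level of the 7 markers was 2984 to 4194 CPM at 1 h, 2622 to 7139 CPM at 6 h and 5284 to 6442 CPM at 22 h, and bta-miR-155 itself made up much of the difference.

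**Figure D2:**
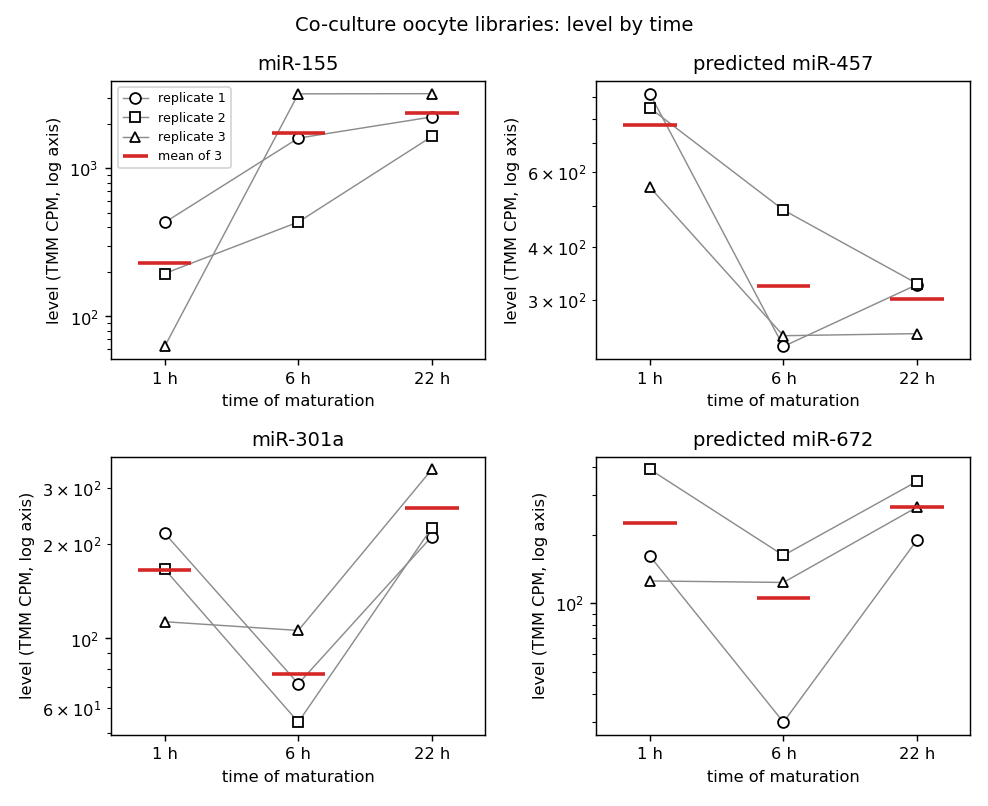
Level of 4 miRNAs (TMM-normalised CPM, log axis) in each co-culture library at 1 h, 6 h and 22 h. Symbols are replicates, joined by replicate number, and red bars are means of 3. bta-miR-155 is higher and predicted miR-457 lower at 22 h than at 1 h in every library, while bta-miR-301a and predicted miR-672 are lowest at 6 h in their means.

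Predicted miR-457, the predicted entry ending in CCA, was lower after 1 h. Its levels were 916, 848 and 552 CPM at 1 h, 233, 488 and 247 CPM at 6 h, and 326, 328 and 250 CPM at 22 h. All 1 h libraries lay above all later libraries, and the 6 h and 22 h libraries overlapped. The log2 fold change was -1.39 (SE 0.24; edgeR adjusted p = 0.0900) from 1 h to 22 h, with 3 of 3 pairs lower, at a time when groups not overlapping in that direction made up 5.23% of all miRNAs. It was -1.32 (SE 0.34; edgeR adjusted p = 0.401; background 6.40%) from 1 h to 6 h and -0.03 (SE 0.31; edgeR adjusted p = 0.967) from 6 h to 22 h. For 1 h to 22 h, 4 of 16 alternatives put its adjusted p under 0.05 (range 0.0079 to 0.846), and its log2 fold change stayed between -1.59 and -1.33.

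Predicted miR-484 and predicted miR-485, which differ from each other at 1 base, did not show the same pattern. Predicted miR-484 held 297, 429 and 490 CPM at 1 h and 190, 604 and 391 CPM at 22 h. The 2 times overlapped. Its log2 fold change from 1 h to 22 h was -0.17 (SE 0.28; edgeR adjusted p = 0.891), and that of predicted miR-485 was -0.35 (SE 0.26; edgeR adjusted p = 0.886). Whether the 3 entries come from transfer RNAs was not tested.

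The remaining small p-values from 1 h to 22 h belonged to predicted miR-597, predicted miR-598 and predicted miR-599, whose counts were identical in all libraries and which therefore count as a single signal. Their levels were 633, 332 and 138 CPM at 1 h, 186, 36.2 and 124 CPM at 6 h and 122, 173 and 78.2 CPM at 22 h. These rested on 47, 34 and 11 counts at 1 h, 31, 2 and 7 at 6 h and 18, 10 and 5 at 22 h. The 2 counts of replicate 2 at 6 h lay under the floor of 3 counts. Replicate 3 at 1 h lay within the range of the 22 h libraries, so the groups overlapped. The log2 fold change was -1.58 (SE 0.39; edgeR adjusted p = 0.304), lower in 3 of 3 pairs. It was -0.97 without replicate 1, and 1 alternative, with de-duplicated read totals as library size, put the edgeR adjusted p at 0.0151 (range over all alternatives 0.0151 to 0.981). That alternative moved the median log2 fold change of all tested miRNAs to -0.21, against 0.01 in the main fit.

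Among the values for 1 h to 6 h, 3 further predicted entries had the smallest p-values. Predicted miR-777, among the most abundant entries, held 23058, 37008 and 27172 CPM at 1 h and 35901, 42718 and 42146 CPM at 6 h, and the groups overlapped by a narrow margin. Its log2 fold change was 0.49 (SE 0.13; edgeR adjusted p = 0.401), and from 6 h to 22 h it was -0.51 (SE 0.19; edgeR adjusted p = 0.615), and the levels at 22 h were 30201, 22999 and 35354 CPM, which overlapped with those at 1 h. Predicted miR-438 had a log2 fold change of -1.32 (SE 0.37) and predicted miR-631 one of 1.27 (SE 0.36), both without overlap and both with an edgeR adjusted p of 0.401. They rested on few counts, 3 to 29 per library for predicted miR-438 at 1 h and 6 h and 8 to 50 for predicted miR-631. Groups not overlapping from 1 h to 6 h made up 6.40% of all miRNAs with 6 h lower and 6.84% with 6 h higher.

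From 6 h to 22 h the smallest p-value belonged to bta-miR-301a, of the miR-130/301 family. Its levels were 71.8, 54.3 and 106 CPM at 6 h and 211, 224 and 344 CPM at 22 h, and all 22 h libraries lay above all 6 h libraries. At 1 h it held 216, 166 and 113 CPM, and replicate 3 at 1 h was close to the highest 6 h library. The log2 fold change was 1.64 (SE 0.31; edgeR adjusted p = 0.358), higher in 3 of 3 pairs, with a background of 7.23% of miRNAs not overlapping in that direction. Its 6 h values rested on 12, 3 and 6 counts, and 1 of 15 alternatives, the fit of known miRNAs apart from predicted ones, put its adjusted p under 0.05 (0.043, range 0.043 to 0.990). The control group gave a log2 fold change of -0.15 (SE 0.56; edgeR adjusted p = 0.961) for the same step.

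Predicted miR-672 followed a similar course, with 162, 390 and 126 CPM at 1 h, 29.9, 163 and 124 CPM at 6 h and 190, 345 and 266 CPM at 22 h. Its log2 fold change from 6 h to 22 h was 1.54 (SE 0.39; edgeR adjusted p = 0.583), and its 6 h values rested on 5, 9 and 7 counts. The 6 h and 22 h libraries did not overlap, and the 1 h libraries spanned both. Predicted miR-807 held 2560, 2896 and 2888 CPM at 1 h, 3148, 3762 and 2810 CPM at 6 h and 5972, 5525 and 4081 CPM at 22 h, so all 22 h libraries were above all others. Its log2 fold change was 0.63 (SE 0.17; edgeR adjusted p = 0.583) from 6 h to 22 h and 0.84 (SE 0.24; edgeR adjusted p = 0.377) from 1 h to 22 h. Of all miRNAs, 7.23% did not overlap with 22 h higher from 6 h to 22 h, and 7.27% from 1 h to 22 h. Predicted miR-662 and predicted miR-663, with identical counts, had a log2 fold change of -1.11 (SE 0.30; edgeR adjusted p = 0.583) and overlapping groups.

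The groups of related miRNAs gave the same picture of small differences, and no member of any list was called in any of the 3 comparisons. In the let-7 family, which is abundant in differentiated cells, 8 of 9 members were tested, and their log2 fold changes had medians of -0.18, 0.00 and -0.12 from 1 h to 6 h, 6 h to 22 h and 1 h to 22 h. Over all tested miRNAs the medians were 0.02, -0.00 and 0.01. Over the known miRNAs alone, the class to which these families belong, they were -0.13, 0.13 and -0.02. The miR-30 family (5 of 6 tested) had medians of -0.01, 0.15 and 0.24, and the miR-10, miR-99/100 and miR-125 group (5 of 7) had 0.05, 0.06 and -0.09. The miR-17-92 and miR-106b-25 clusters, known for promoting proliferation, had 9 of 14 members tested, with medians of -0.14, 0.16 and -0.12. The miR-23/24/27 clusters (4 of 6 tested) had medians of -0.27, 0.14 and -0.03. Of miR-26 and miR-29, 4 of 8 were tested from 1 h to 6 h, all 4 below 0, with a median of -0.30. Their medians were 0.10 from 6 h to 22 h (3 tested, 2 above 0) and -0.27 from 1 h to 22 h (4 tested, 2 above 0). Levels of the leading members of these groups ranged, over the 9 libraries, from 8627 to 16823 CPM for bta-miR-30d, from 7057 to 13377 CPM for bta-miR-92a, from 9007 to 12842 CPM for bta-miR-26a and from 3400 to 5222 CPM for bta-miR-27b.

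In the miR-15/16 family all 7 members were tested. Their median was -0.42 from 1 h to 6 h, and 4 members were lower in all 3 pairs, against 15.5% of all tested miRNAs. The lowest was bta-miR-497 at -1.45 (SE 0.43; edgeR adjusted p = 0.401). From 6 h to 22 h the median was 0.24, and 5 members were higher in all 3 pairs, against 17.3% of all tested miRNAs. Known miRNAs alone had medians of -0.13 from 1 h to 6 h and 0.13 from 6 h to 22 h. Their own shares in all 3 pairs were not determined. bta-miR-16a held 16227, 19008 and 15109 CPM at 6 h and 23006, 24087 and 19842 CPM at 22 h, without overlap, at a log2 fold change of 0.37 (SE 0.15; edgeR adjusted p = 0.647). From 1 h to 22 h the members went both ways around a median of 0.02, and 3 of the 7 had an unadjusted p under 0.05. These were bta-miR-16a at 0.47 (SE 0.15; edgeR adjusted p = 0.481) and bta-miR-424-5p at -0.81 (SE 0.28; edgeR adjusted p = 0.557), both without overlap, and bta-miR-497 at -0.99 (SE 0.41; edgeR adjusted p = 0.759), with overlapping groups. Of all miRNAs, 7.27% did not overlap with 22 h higher and 5.23% with 22 h lower from 1 h to 22 h. From 6 h to 22 h the share with 22 h higher was 7.23%.

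The group of miR-148a, its relatives and the miR-200 family, the latter known for maintaining epithelial identity, had 6 of 8 members tested. All 6 log2 fold changes were below 0 from 1 h to 6 h, with a median of -0.12, and from 6 h to 22 h all 6 were above 0, between 0.13 and 0.58 with a median of 0.41. Of all tested miRNAs, 205 of 415 were above 0 at that step. The known miRNAs alone had a median of -0.13 from 1 h to 6 h and 0.13 from 6 h to 22 h. bta-miR-148a held 37026, 32138 and 22849 CPM at 6 h and 49008, 50022 and 35666 CPM at 22 h, higher in 3 of 3 pairs with overlapping groups. Its log2 fold change was 0.52 (SE 0.15; edgeR adjusted p = 0.583) from 6 h to 22 h and 0.42 (SE 0.12; edgeR adjusted p = 0.377) from 1 h to 22 h.

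**Figure D3:**
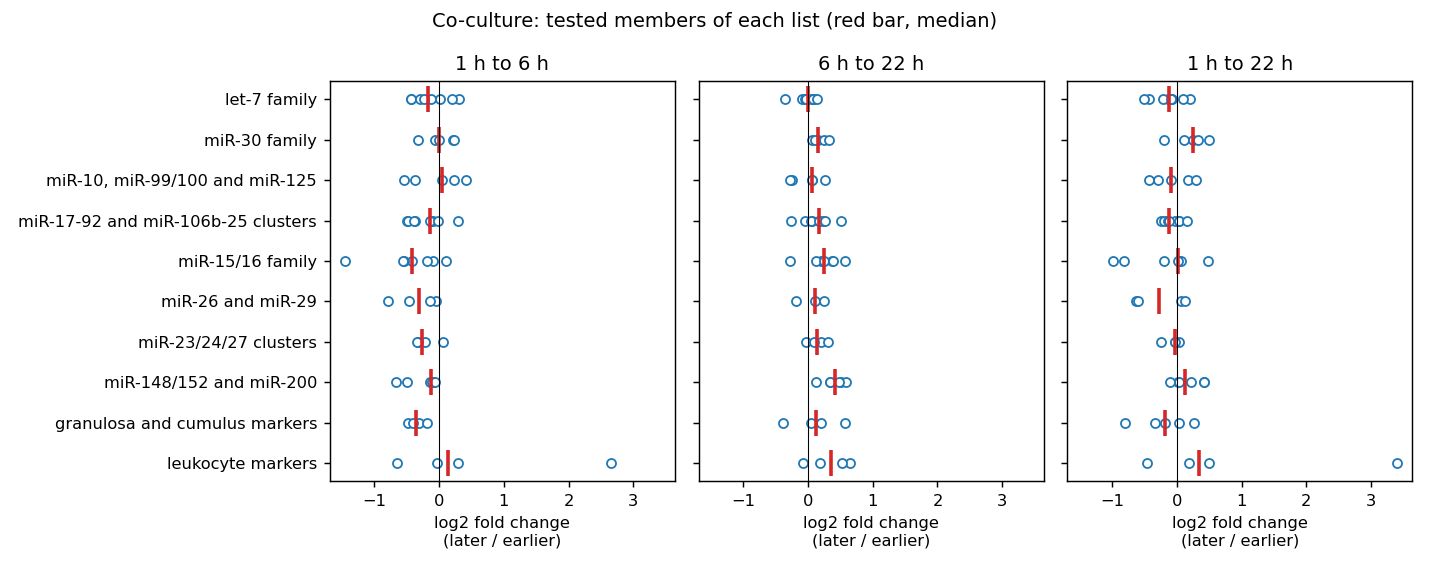
Log2 fold change (horizontal axis) of each tested member of 10 miRNA lists in the co-culture group, with 1 panel per comparison and red bars for list medians. Most members lie within 0.5 of 0. bta-miR-155 at 2.66 and 3.40 (leukocyte list) and bta-miR-497 at -1.45 (miR-15/16 family) stand apart.

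Markers of granulosa and cumulus cells were examined because the oocytes were denuded and shared the well with COCs. Of 13 markers, 11 were detected and bta-miR-21-3p and bta-miR-212 were at 0 in all 9 libraries, while bta-miR-222, bta-miR-450a and bta-miR-542-5p did not exceed 2 counts. The summed level of the list was 7509 to 14096 CPM at 1 h, 5914 to 10104 CPM at 6 h and 9117 to 10355 CPM at 22 h, so the times overlapped. 4 to 5 markers were tested, with medians of -0.36, 0.13 and -0.19. Since a library is a pool, fewer adhering cells and less RNA per cell cannot be told apart.

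bta-miR-21-5p, the most abundant of these markers and a miRNA known for opposing apoptosis, held 5188, 4184 and 3378 CPM at 1 h, 5399, 2966 and 2368 CPM at 6 h, and 6319, 4420 and 4988 CPM at 22 h. Replicate 1 was the highest at every time, and all times overlapped. The log2 fold changes were -0.31 (SE 0.22; edgeR adjusted p = 0.664) from 1 h to 6 h, 0.57 (SE 0.21; edgeR adjusted p = 0.615) from 6 h to 22 h and 0.26 (SE 0.21; edgeR adjusted p = 0.886) from 1 h to 22 h, the last 2 higher in 3 of 3 pairs. bta-miR-202, a miRNA of the gonads, had a log2 fold change of -0.80 (SE 0.34; edgeR adjusted p = 0.759) from 1 h to 22 h.

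Of the other cell types, the 3 erythroid markers were nearly absent, with bta-miR-144 at 0 throughout and at most 5 counts of bta-miR-486. The stromal and theca markers summed to 1121 to 2921 CPM, most of it bta-miR-143 (977 to 2499 CPM), with 2 of 6 tested and none called. Of the 8 muscle markers only bta-miR-206 passed the filter, at 1 h to 6 h. It held 27.0, 68.3 and 1281 CPM at 1 h, 174, 3274 and 88.4 CPM at 6 h and 54.4, 104 and 62.5 CPM at 22 h. Replicate 3 at 1 h and replicate 2 at 6 h stood far above the rest, while bta-miR-133b, bta-miR-133c, bta-miR-208a and bta-miR-208b were at 0 in all 9 libraries and bta-miR-1 did not exceed 6 counts. The log2 fold change of bta-miR-206 was 1.62 (SE 1.83; edgeR adjusted p = 0.819), and it was among the 6 calls made without replicate 3.

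The miR-302 and miR-371 miRNAs of pluripotent cells (5 of 6 at 0 in all libraries) and the imprinted cluster on chromosome 21 (21 of 36 at 0; leading member bta-miR-379, 62.8 to 138 CPM) had no tested member. Of the ruminant miR-2284 and miR-2285 family, 2 of 148 members were tested, at log2 fold changes within 0.25 of 0, and its leading member bta-miR-2285bf held 1592 to 3329 CPM. Of the 16 predicted miRNAs named by the study, a list chosen on these samples, 14 to 15 were tested, and none was called. Their medians were -0.05, -0.03 and -0.06.

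The DO and control groups, fitted in the same way, gave more calls over the whole interval. Between 1 h and 22 h, 8 of 442 miRNAs (1.81%) were called in the DO group, 7 higher (1.58%) and 1 lower (0.226%) at 22 h, and 2 of 455 (0.44%) in the control group, both higher. bta-miR-155 was called in both, with log2 fold changes of 4.41 (SE 0.33; edgeR adjusted p = 1.91e-05) in DOs and 4.64 (SE 0.25; edgeR adjusted p = 2.31e-09) in controls, each higher in 3 of 3 pairs. At 22 h the DO libraries held 2851, 7963 and 5237 CPM of it and the control libraries 6727, 12588 and 3958 CPM, against 1640 to 3190 CPM in co-culture. At 22 h the DO libraries overlapped with those of co-culture, and the control libraries lay above them. Control and co-culture were not tested against each other at 22 h here, and the share of all miRNAs separated in this way was not determined. The study reported no DE miRNA between control and co-culture at any time.

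A difference between groups in the size of a change was tested with an interaction term. For bta-miR-155 from 1 h to 22 h, the co-culture log2 fold change minus that in DOs was -1.07 (SE 0.91; edgeR adjusted p = 0.972), and the difference from controls was -1.16 (SE 0.75; edgeR adjusted p = 0.996). Without replicate 1 these differences were -0.03 and -0.37, without replicate 2 they were -1.40 and -0.84, and without replicate 3 they were -1.61 and -2.08. From 6 h to 22 h the difference from DOs was -2.56 (SE 0.82; edgeR adjusted p = 0.338, unadjusted p = 0.010). None of these passed the threshold. bta-miR-21-5p, called in the control group at a 2.14-fold difference (edgeR adjusted p = 0.0151), had a difference of -0.88 (SE 0.27; edgeR adjusted p = 0.996, unadjusted p = 0.0061). Predicted miR-457 had log2 fold changes of -0.80 (SE 0.32; edgeR adjusted p = 0.363) in DOs and -0.80 (SE 0.28; edgeR adjusted p = 0.441) in controls, without overlap in either, where 8.14% and 2.86% of all miRNAs did not overlap in that direction.

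Over all miRNAs, 0 interactions were called in edgeR against the DO group from 1 h to 6 h (0% of 516 tested), 6 h to 22 h (0% of 469) and 1 h to 22 h (0% of 499), with 19, 38 and 17 at an unadjusted p under 0.05. Against the control group 0 were called of 478, 476 and 498 (0% each), with 17, 15 and 11 at an unadjusted p under 0.05. DESeq2 called 3 from 1 h to 22 h against the DO group and 0 in the other 5. The 3 were predicted miR-835 and predicted miR-559 with its identical copy predicted miR-560. Both sets of interactions use the same co-culture libraries.

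**Figure D4:**
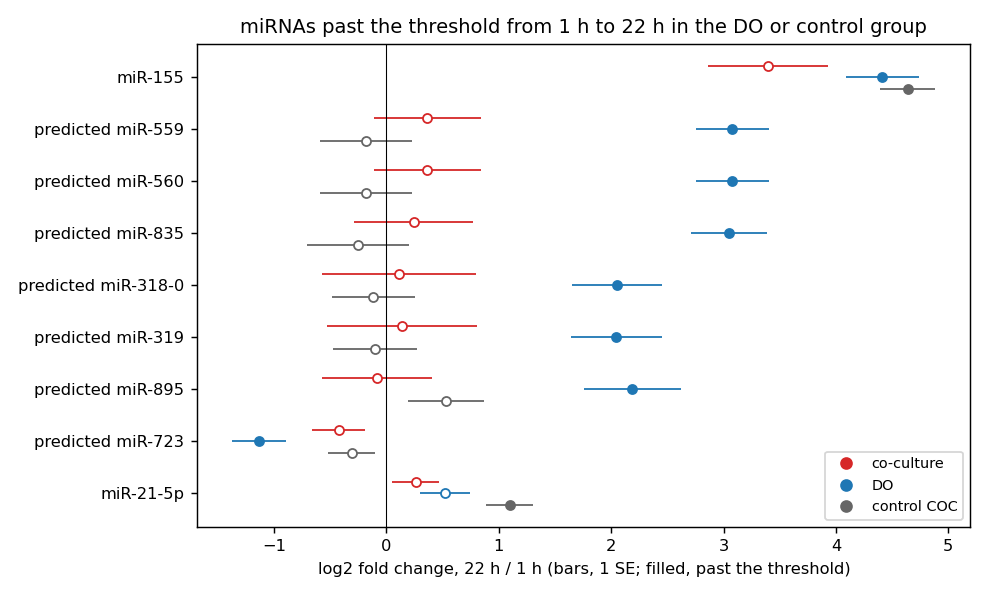
Log2 fold change from 1 h to 22 h (bars, 1 SE; n = 3 libraries per time) in the co-culture (red), DO (blue) and control (grey) groups, for the 9 miRNAs called in the DO or control group. Filled points are past the threshold. bta-miR-155 lies above 3 in all groups, and 6 predicted miRNAs lie above 2 in DOs and between -0.1 and 0.4 in co-culture.

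The 6 predicted miRNAs called higher at 22 h in DOs were predicted miR-559 and its identical copy predicted miR-560, predicted miR-835, predicted miR-895, predicted miR-319 and predicted miR-318-0. They were picked by that call, a choice that favours a larger change in DOs than in other groups. In controls, predicted miR-559, predicted miR-835 and predicted miR-895 had log2 fold changes of -0.18, -0.25 and 0.53 from 1 h to 22 h. Predicted miR-319 and predicted miR-318-0 were at -0.10 and -0.12 there. Since predicted miR-559 and predicted miR-318-0 share most of their sequence, reads could be divided among such entries, and their values are uncertain to that extent. In DOs predicted miR-559 held 1846, 613 and 3133 CPM at 1 h, 2277, 4482 and 3060 CPM at 6 h and 13970, 11223 and 17142 CPM at 22 h. In co-culture it held 5768, 4330 and 2775 CPM at 1 h, 6141, 3093 and 4294 CPM at 6 h and 2419, 7511 and 8522 CPM at 22 h. All 22 h DO libraries lay above every co-culture library, and the co-culture times overlapped. DOs and co-culture were not tested against each other at 22 h here, and the share of all miRNAs separated in this way was not determined.

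The log2 fold change of predicted miR-559 from 1 h to 22 h was 3.08 (SE 0.32; edgeR adjusted p = 0.00021) in DOs and 0.36 (SE 0.48; edgeR adjusted p = 0.886) in co-culture. The difference was -2.61 (SE 0.71; edgeR adjusted p = 0.317, unadjusted p = 0.0034), and DESeq2 put its adjusted p at 0.0070 (range over 8 alternatives 0.0070 to 0.996). For predicted miR-835 the difference was -2.69 (SE 0.74; edgeR adjusted p = 0.317) and for predicted miR-895 it was -2.36 (SE 0.65; edgeR adjusted p = 0.317). Predicted miR-318-0, at 2.05 (SE 0.40) in DOs and 0.11 (SE 0.68) in co-culture, differed by -2.12 (SE 0.85; edgeR adjusted p = 0.972). Predicted miR-723, the single entry called lower in DOs at -1.13 (SE 0.24), was at -0.42 (SE 0.24; edgeR adjusted p = 0.759) in co-culture, lower in 3 of 3 pairs.

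**Figure D5:**
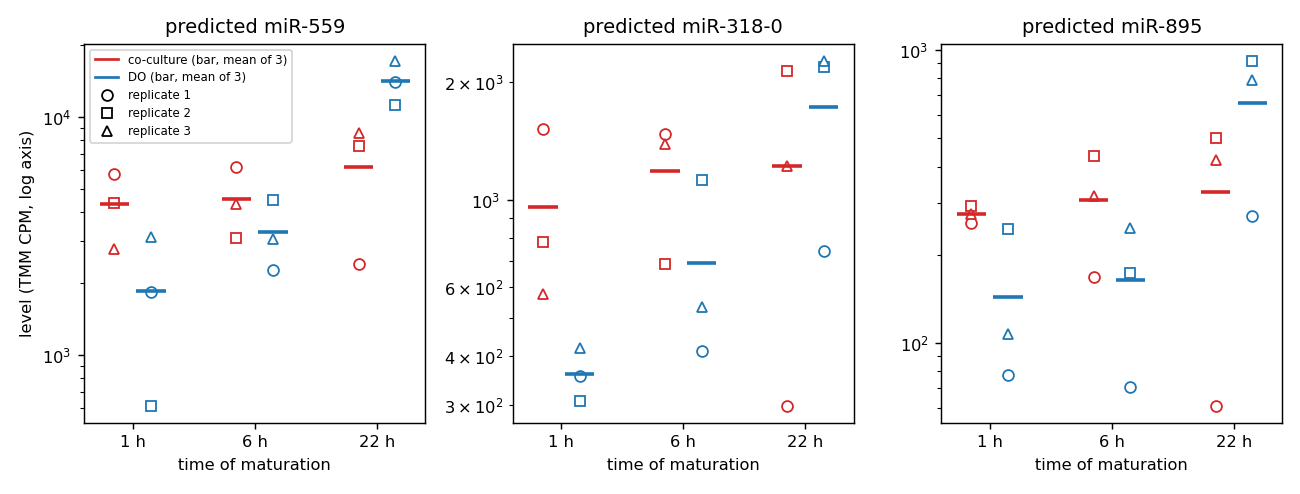
Level of the 3 predicted miRNAs made only of G and C (TMM-normalised CPM, log axis) in each co-culture (red) and DO (blue) library at 1 h, 6 h and 22 h. Symbols are replicates and bars are means of 3. The co-culture library of replicate 1 at 22 h lies lowest of its group and time for each of the 3.

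The co-culture values of these entries at 22 h were split by replicate. Replicate 1 at 22 h held 2419 CPM of predicted miR-559, 299 CPM of predicted miR-318-0 and 61.1 CPM of predicted miR-895. Replicates 2 and 3 held 7511 and 8522 CPM, 2141 and 1220 CPM, and 501 and 422 CPM of the same entries. In DOs at 22 h, replicate 1 was likewise the lowest for predicted miR-318-0 (741 CPM) and predicted miR-895 (271 CPM). Without replicate 1 the co-culture log2 fold change of predicted miR-559 from 1 h to 22 h was 1.11 (edgeR adjusted p = 0.0016) and that of predicted miR-835 was 1.06 (edgeR adjusted p = 0.0152), and both were among the 12 calls. The difference of predicted miR-559 from DOs ranged from -3.36 to -1.95 when each replicate was left out in turn. Replicate 1 at 22 h was also one of the 2 deepest libraries. The other, replicate 1 at 6 h, held the highest 6 h level of predicted miR-559 (6141 CPM) and the lowest of predicted miR-895 (168 CPM). The part of depth in the result was not tested.

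The 2 smallest p-values of each interaction add few further entries. Against DOs from 6 h to 22 h, predicted miR-895 differed by -2.25 (SE 0.46; edgeR adjusted p = 0.283) and predicted miR-137 by -2.24 (SE 0.54; edgeR adjusted p = 0.338). Predicted miR-137 held 138, 344 and 566 CPM at 6 h and 81.5, 242 and 203 CPM at 22 h in co-culture, lower in 3 of 3 pairs with overlapping groups. In the interval 1 h to 22 h, bta-miR-206 differed by -4.44 (SE 1.14; edgeR adjusted p = 0.317), and its co-culture values rest on the single high library named above. Against controls from 6 h to 22 h, predicted miR-432 differed by 2.70 (SE 0.81; edgeR adjusted p = 0.768) and predicted miR-662 by -1.62 (SE 0.55; edgeR adjusted p = 0.768). Against controls from 1 h to 22 h, predicted miR-906, a predicted entry of the mitochondrial genome, differed by -1.05 (SE 0.40; edgeR adjusted p = 0.996), with 881 to 1060 CPM at 22 h in co-culture.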

How the data were processed

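Total RNA of pooled oocytes was converted to small RNA libraries with unique molecular identifiers (QIAseq). The authors deposited raw counts per miRNA, made from de-duplicated forward reads with UMI-tools (1.1.2 per the labels), FastQC (0.11.9), the ARS-UCD1.2 genome, miRBase and miRPro. De-duplication means that a count approximates a molecule. Reads shared by identical copies can appear under several entries. Of 1995 entries, 451 had the same counts over all 39 libraries as another. That number includes differently named known miRNAs with equal counts, such as bta-miR-134 and bta-miR-193a-3p, so it is not a count of copies.

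The tables were fitted in edgeR 4.0.16 (R 4.3.3; limma 3.58.1): filterByExpr (minimum count 10, minimum total 15), TMM, and the quasi-likelihood test with the replicate number as a block, after the study's batch term for ovary pools. The labels give a replicate number only and do not tie it to a pool, so p-values measure the spread between these libraries. Interactions were fitted over 12 libraries of 2 groups and 2 times. Levels are CPM after TMM over the 36 libraries at 1, 6 and 22 h. Benjamini-Hochberg adjustment covered all tested miRNAs. The SE of a log2 fold change was taken from the F statistic. The same code was tested on simulated counts. DESeq2 1.42.0 and the other alternatives, among them library sizes from the study's read summary, are in the closing section. The floor of 3 counts covers counting error only.

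Predicted entries are printed by their deposited number. Named were all miRNAs past the threshold or, with none, the 5 smallest p-values of each comparison, the 2 smallest of each interaction, the most abundant member of each list, the 10 known and 5 predicted most abundant miRNAs, and bta-miR-155 and bta-miR-21-5p. The calls of the other groups, predicted miR-484, predicted miR-485 and the members at the ends of the lists were added after their values were seen. The members and lists were chosen with earlier results of these data known. The 0 h control libraries were not used in the fits. The CBX libraries entered only the TMM scaling of the levels and the alternative fit over 36 libraries.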

Additional observations from a re-analysis of the deposited data

Results flagged for a closer look

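Several predicted miRNAs were higher in all 3 replicate pairs of one group and lower in all 3 of the other, which is what put them here, and none of the differences passed the threshold in the interaction test of edgeR. From 1 h to 6 h, predicted miR-672 had a log2 fold change of -1.23 in co-culture and 0.76 in DOs (difference -2.03; edgeR adjusted p = 0.983, unadjusted p = 0.014). Predicted miR-883 had -0.77 in co-culture and 0.38 in DOs (difference -1.15; edgeR adjusted p = 0.983). Predicted miR-620 had 0.63 in co-culture and -0.69 in DOs (difference 1.29; edgeR adjusted p = 0.983).

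From 6 h to 22 h, predicted miR-137 had a log2 fold change of -0.97 in co-culture and 1.21 in DOs (difference -2.24; edgeR adjusted p = 0.338, unadjusted p = 0.0018). Against the control group, predicted miR-749 and predicted miR-750, which had the same counts in the co-culture libraries, were at 0.53 in co-culture and -0.75 in controls from 1 h to 6 h (difference 1.33; edgeR adjusted p = 0.927), and at 0.33 and -0.14 from 1 h to 22 h (difference 0.42; edgeR adjusted p = 0.996). With many miRNAs compared in 6 interactions, such splits of 3 against 3 pairs are not tests of their own.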

How the results depend on the processing

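Of 530 values recomputed under alternatives, 485 stayed on the same side of the threshold with the same direction (counts, within 1.5 times), 24 single values came past the threshold, 20 counts moved and 1 value reversed. The 485 include the setting without a fold-change threshold, which reuses the main fit and could not move. They also include values adjusted over the 3 co-culture comparisons, which rest on the main fit too. The 485 therefore overstate how stable the values were. Counts of calls from 1 h to 6 h were 4 with de-duplicated read totals as library size, 1 with known and predicted miRNAs fitted separately, 1 in a fit over 36 libraries, and 0 to 6 when each replicate was left out in turn. From 6 h to 22 h there was 1 call with known and predicted miRNAs separate, and 0 to 2 with a replicate left out. From 1 h to 22 h there was 1 call each with RLE size factors, DESeq2, no low-count filter, known and predicted miRNAs separate and identical profiles kept once (bta-miR-155 each time), 2 with a minimum count of 30 and 2 in the 36-library fit (bta-miR-155 and predicted miR-457), 5 with de-duplicated totals, and 0 to 12 with a replicate left out. Interactions against DOs gave 3 calls in DESeq2 from 1 h to 22 h, and 0 to 1 with a replicate left out from 1 h to 6 h. The interaction of bta-miR-155 against controls from 1 h to 6 h turned from -0.16 to 0.82 without replicate 1 (lowest of the left-out replicates -1.14). Except where identical profiles were kept once, entries with identical counts, such as predicted miR-559 and predicted miR-560, are each included in these counts of calls. With de-duplicated totals the median log2 fold change of all tested miRNAs was -0.35, 0.12 and -0.21 from 1 h to 6 h, 6 h to 22 h and 1 h to 22 h. The main fit gave 0.02, -0.00 and 0.01, so that setting shifted all values together. The causes were not tested.

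Without the replicate block there was 1 call from 1 h to 22 h (bta-miR-155, log2 fold change 3.32, edgeR adjusted p = 0.038) and 0 in the other 2 comparisons, with 24, 22 and 10 miRNAs at an unadjusted p under 0.05 from 1 h to 22 h, 1 h to 6 h and 6 h to 22 h; the block changed no other call. Same-numbered libraries correlated in their deviations at 0.24, 0.27 and 0.00 between 1 h and 6 h, 0.45, 0.21 and 0.34 between 6 h and 22 h, and -0.05, 0.23 and 0.02 between 1 h and 22 h, so the numbers were not shown to pair the libraries in 2 of the 3 comparisons. Depth limits the low entries: at 3 counts a library reads 18.2 to 55.5 CPM.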
